A study of Mus musculus with 14 samples.

Results

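The 9 genes described here encode parts of the PI3K and AKT pathway of mouse T cells: the class IA catalytic subunits Pik3ca, Pik3cb and Pik3cd, the class IB catalytic subunit Pik3cg, the regulatory subunits Pik3r1 and Pik3r5, the lipid phosphatase Inpp5d, and the kinases Akt1 and Akt2. They were chosen by symbol among the 24091 genes of the counts table, and all 9 passed the filter on low counts, which left 12248 genes. In T cells sorted from the spleen, 3 of the 9 genes were lower in BC CML than in CP CML mice: Pik3r1 fell by 23.6%, Pik3r5 fell by 17.0% and Akt2 fell by 10.6%. With a score of myeloid markers in the fit, Pik3r1 and Akt2 remained past the threshold and Pik3r5 did not (log2 fold change −0.10, adjusted p = 0.601). The other 6 did not pass the test. Over all tested genes 65.2% were called, with 32.7% lower, so the share of the 9 was not above the background. Beside them, Pik3r3, a regulatory subunit of the same class as Pik3r1, rose from 3.97 to 30.9 normalized counts (CPM, reads scaled to a common library size).

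PI3K phosphorylates the membrane lipid PIP2 to PIP3. Class IA enzymes pair a catalytic subunit with a regulatory subunit that stabilizes it and brings it to phosphorylated receptors and adaptors such as CD28 and ICOS in T cells, whereas the class IB enzyme pairs Pik3cg with Pik3r5 or Pik3r6 and answers to G protein-coupled receptors. PIP3 recruits AKT kinases and TEC family kinases to the membrane, AKT phosphorylates FOXO factors and keeps them out of the nucleus, and the phosphatase SHIP1 (Inpp5d) removes PIP3.

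RNA-seq was done on T cells (200000 per sample) from 8 CP CML mice (Mir142+/+BCR-ABL) and 6 BC CML mice (Mir142−/−BCR-ABL), with 1 library per mouse and paired-end reads. CML is chronic myelogenous leukemia, CP its chronic phase and BC its blast crisis. Every mouse of both groups carried the SCLtTA/BCR-ABL transgenes on a C57BL/6 CD45.2 background, in which the leukemia gene BCR-ABL is driven in SCL-expressing cells once tetracycline is withdrawn (tet-off), and had been off tetracycline for 3 weeks. The study's mice were 6 to 10 weeks old, and no drug treatment was given. Mir142 was deleted in all cells of the BC CML mice, so T cells and leukemic cells lacked it together and the consequences of each cannot be told apart. The sample codes in the labels share 1 prefix within each group, different between groups. The sources used here do not say what it stands for, and whatever it marks cannot be told apart from genotype. The study does not name the markers used for the sort of this RNA-seq, and for its metabolomics it sorted spleen T cells as CD3+.

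The libraries held between 15703702 and 19914531 reads assigned to genes. Mir142 (chromosome 11 from 87756864 to 87756927, mm10) had 302 to 650 reads in CP CML libraries and 0 reads in every BC CML library, as the labels say. The T cell label was borne out by the 8 of 9 listed T cell markers that were measured, whose summed level was between 2781 and 3207 CPM in CP CML and between 3273 and 3590 CPM in BC CML (Lck, a T cell receptor kinase, was highest). Of these 8 markers, 4 were higher in BC CML, 1 was lower and the others, Lck among them, did not pass the test. Markers of other cells moved with the groups. The 14 myeloid markers summed to between 165 and 823 CPM in CP CML and between 1266 and 2581 CPM in BC CML, 13 of the 14 were higher, none was at 0 in all libraries, and Ly6c2 was the highest of them. BC CML mice 5 and 6 had the highest myeloid sums, 1958 and 2581 CPM. The 6 NK cell markers summed to 59.4 to 80.7 CPM against 192 to 320 CPM, with Klra4 at 0 throughout and Klrb1c highest, and the 8 B cell markers to 60.7 to 180 CPM against 103 to 511 CPM, with Cd22 highest. The 6 measured erythroid markers summed to 17.0 to 70.9 CPM against 54.9 to 89.4 CPM, with Hbb-bs highest, and the 5 megakaryocyte and platelet markers to 3.31 to 5.82 CPM against 2.71 to 6.27 CPM, with Itga2b highest. All 8 naive T cell markers were lower in BC CML, with a sum of 4919 to 6275 CPM against 2702 to 3875 CPM and Tcf7 highest. In a bulk sample, fewer cells of a type and less RNA per cell cannot be told apart, and the part of these markers in the results was tested only by adding the myeloid score to the fit.

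Since the deleted gene makes a microRNA, the mature miR-142 sequences and the matches to them in the 3′UTRs of the 9 genes are shown first. A microRNA pairs with its targets mainly through its seed, bases 2 to 8, in capitals here (RefSeq, GRCm38.p6, plus strand of chromosome 11 at 87756867 to 87756887 for the 5p arm and 87756903 to 87756925 for the 3p arm).
mmu-miR-142a-5p: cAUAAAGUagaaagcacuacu
mmu-miR-142a-3p: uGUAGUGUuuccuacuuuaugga
The seeds of the arms differ. The sites searched in the sense strand of the longest annotated 3′UTR of each gene (GENCODE vM21, same genome as mm10) were ACTTTATA (8mer), ACTTTAT (7mer-m8) and CTTTATA (7mer-A1) for the 5p arm, and ACACTACA, ACACTAC and CACTACA for the 3p arm, with an 8mer counted once and not again as the shorter sites within it.

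At least 1 site was found in 5 of the 9 genes (Pik3ca, Pik3cb, Pik3cd, Pik3r1 and Akt2) and in 30.68% of the 11506 tested genes with a 3′UTR. For the 5p arm alone the share of all genes was 23.47%, and for the 3p arm 12.11%. An 8mer was present in 5.21% of all genes for the 5p arm and in 3.03% for the 3p arm, and Pik3ca was the only gene of the 9 to hold one of either kind. The 3′UTRs of the 9 genes had 877 to 5655 bases, with that of Pik3ca longest, and 7 of them were longer than the median of 1187 bases over all genes. One site of each gene is printed in its 3′UTR context, 5′ to 3′, with the match in capitals, and for Pik3ca one of each arm.
Pik3ca, 3p 8mer: gctggacccccACACTACAgaatattaatg
Pik3ca, 5p 8mer: aaaaggaaaatACTTTATAggccacgtgga
Pik3cb, 3p 7mer-A1: tgactctgctgCACTACAtgtgtgcatgtg
Pik3cd, 3p 7mer-A1: gacctggcctcCACTACAgttagtgtattc
Pik3r1, 5p 7mer-A1: cacacctgcagCTTTATAgctcttccctta
Akt2, 5p 7mer-m8: ttaaaaaaaaaACTTTATtttgccttttgg
The match in Pik3r1 lies at bases 2098 to 2104 of a 3′UTR of 4317 bases (chromosome 13 from 101682776 to 101682782, minus strand), and that in Akt2 at bases 71 to 77 of 2685 (chromosome 7 from 27638212 to 27638218, on the plus strand). In Pik3ca, the 3p 8mer lies on chromosome 3 from 32466468 to 32466475 and the 5p 8mer from 32467565 to 32467572. A second 5p 8mer of Pik3ca follows at 32467583 to 32467590, and a 7mer-A1 lies before them at 32465955 to 32465961. The matches in Pik3cd (chromosome 4 from 149649992 to 149649998) and Pik3cb (chromosome 9 from 99038139 to 99038145) are on the minus strand, and that in Pik3cb lies outside the gene's range in the counts table. No site was found in the 3′UTRs of Pik3cg, Pik3r5, Inpp5d and Akt1. A match is a run of letters and not a shown binding site. Of the 3 genes that were lower in BC CML, Pik3r1 and Akt2 held a site and Pik3r5 held none, and of the 6 that did not pass the test, Pik3ca, Pik3cb and Pik3cd held one.

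The levels are given first per length, since reads accumulate with the length of a transcript, as CPM per kilobase of the length listed in the table. In CP CML, Pik3cd, the class IA subunit that predominates in leukocytes, had the highest level with 154 ± 8.90 CPM per kilobase (SD, n = 8). Pik3r5 with 56.3 ± 5.57, Akt1 with 56.2 ± 3.20 and Akt2 with 51.7 ± 1.95 CPM per kilobase followed, and Pik3r5 and Akt1 overlapped between mice, as did Akt1 and Akt2, although Akt1 was above Akt2 in all 8 mice. Inpp5d (39.7 ± 3.23) and Pik3r1 (31.4 ± 2.79) came next and overlapped. Pik3ca (18.4 ± 0.678), Pik3cg (14.4 ± 0.910) and Pik3cb (3.63 ± 0.370) were lowest and did not overlap with each other. In BC CML the order was Pik3cd (166 ± 18.7), Akt1 (56.9 ± 2.32), Pik3r5 (46.7 ± 7.34), Akt2 (46.3 ± 1.81), Inpp5d (42.9 ± 5.51), Pik3r1 (24.0 ± 1.11), Pik3ca (19.1 ± 0.370), Pik3cg (13.4 ± 1.26) and Pik3cb (3.82 ± 0.271 CPM per kilobase; SD, n = 6). The genes from Akt1 to Inpp5d overlapped with their neighbours in that order. Pik3r1 was apart from Inpp5d in BC CML, whereas they overlapped in CP CML.

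**Figure D1:**
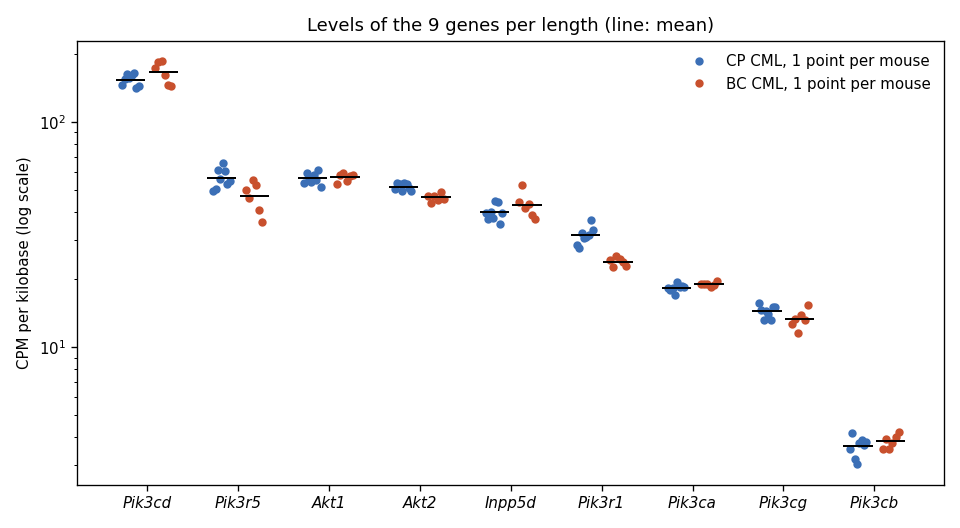
Levels of the 9 genes per kilobase of listed length in CPM, on a log axis, with 1 point per mouse and a line at the mean of each group (8 CP CML and 6 BC CML mice). Pik3cd lies above all others in every mouse and Pik3cb below all others, and Pik3r1 is the gene of the 9 whose groups are farthest apart.

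Among the class I catalytic subunits, Pik3cd made up 80.8% ± 1.34 of the summed level per kilobase in CP CML (n = 8) and 82.0% ± 2.23 in BC CML (n = 6). Pik3ca made up 9.65% ± 0.538 and 9.48% ± 0.868, Pik3cg 7.60% ± 0.775 and 6.66% ± 1.12, and Pik3cb 1.91% ± 0.211 and 1.90% ± 0.283. The makeup of the catalytic pool by transcript was thus dominated by 1 gene in both groups, with shares that overlapped.

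The comparison of BC CML with CP CML asked whether the pathway's transcripts differ between T cells without and with miR-142 in leukemic mice. Of the 9 genes, 0 were higher, 3 were lower and 6 did not pass an adjusted p of 0.05 in edgeR's quasi-likelihood test, so that 33.3% were called, against 65.2% of all 12248 tested genes (32.6% higher and 32.7% lower). The likelihood ratio test of edgeR and DESeq2 also called 3 lower and 0 higher, against 64.6% and 65.5% of all genes called. The same counts came with the replicate number as a block (59.7% of all genes called), and with the myeloid score as a covariate 3 were lower, with Pik3cb in place of Pik3r5, and 43.7% of all genes were called. No gene of the 9 that was above 0 in fold change had an unadjusted p below 0.05. The median log2 fold change was 0.02 over the 9 genes and −0.01 over all tested genes, and the median size of the change, without sign, was 0.11 against 0.28. The groups did not overlap for 2 of the 9 genes, Pik3r1 and Akt2, both lower, against 36.9% of all tested genes (19.3% higher and 17.6% lower).

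**Figure D2:**
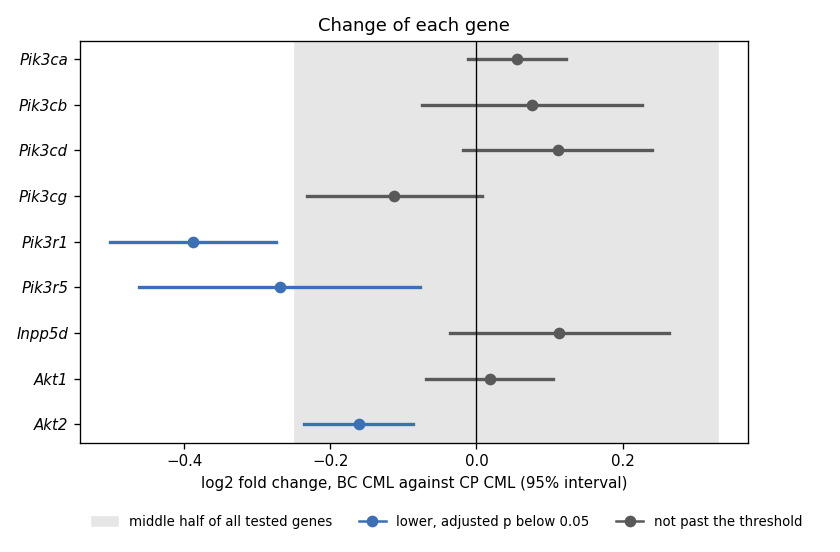
Log2 fold change of each of the 9 genes, BC CML against CP CML, with the 95% interval of the quasi-likelihood fit and, as a grey band, the interquartile range of all 12248 tested genes. Pik3r1, Pik3r5 and Akt2 lie below 0 with intervals that do not reach it, and Pik3r1 is the only gene of the 9 whose point and whole interval lie below the band.

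Pik3cd (chr4:149649168-149701629 in mm10, minus strand), which encodes the catalytic subunit p110δ, was the most abundant of the 9 genes, with 13592 to 21039 reads per library. Its normalized counts were between 833 and 972 CPM in CP CML with a median of 919, and between 852 and 1104 CPM in BC CML with a median of 990. Mice 1 to 3 of BC CML lay between 1029 and 1104 CPM, above the CP CML range, and mice 4, 5 and 6 at 951, 863 and 852 CPM within it. The log2 fold change was 0.11 (SE 0.06, 95% interval −0.02 to 0.24) and did not pass the test (quasi-likelihood adjusted p = 0.121). It passed without BC CML mouse 5 (0.14, adjusted p = 0.0485) and without mouse 6 (0.15, adjusted p = 0.0354), the BC CML mice lowest in Pik3cd. In the other 12 of the 14 fits with 1 library left out it did not pass. With the myeloid score in the fit it was 0.23 (adjusted p = 0.0567). Mice 5 and 6 also had the highest myeloid marker sums, whose part in the result beyond that fit was not tested. The labels give mouse 5 alone a suffix (RP) that the sources used here do not explain.

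Pik3ca (chr3:32436151-32468486, plus strand) encodes p110α, the catalytic subunit used widely in growth factor signalling. It spread least between mice, from 152 to 173 CPM with a median of 164 in CP CML and from 165 to 175 CPM with a median of 170 in BC CML. The groups overlapped, and the log2 fold change of 0.06 (SE 0.03, 95% interval −0.01 to 0.12) did not pass the test (adjusted p = 0.137). Pik3cb (chr9:99038402-99140211, minus strand), which encodes p110β, was the least abundant with 310 to 429 reads per library, and its level was 15.8 to 21.9 CPM (median 19.5) in CP CML and 18.5 to 22.1 CPM (median 20.1) in BC CML. Pik3cb differed by 0.08 on the log2 scale (SE 0.07, 95% interval −0.07 to 0.23, adjusted p = 0.363). It was 0.041 without CP CML mouse 4 and 0.046 without BC CML mouse 6, and with the myeloid marker score in the fit it was −0.21 (adjusted p = 0.0494). The score's markers did not overlap in sum between the groups, so that fit separates genotype and myeloid transcripts only through the spread within groups.

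Pik3cg (chr12:32173397-32208649, minus strand) encodes p110γ, the catalytic subunit that answers to chemokine receptors. CP CML mice had 91.3 to 109.5 CPM with a median of 101.1, and BC CML mice had 80.1 to 106.4 CPM with a median of 92.2. The groups overlapped, and mouse 6 of BC CML was the highest of its group and above all CP CML mice except mouse 1. The log2 fold change of −0.11 (SE 0.06, 95% interval −0.23 to 0.01) did not pass the test (adjusted p = 0.0909), whereas without mouse 6 it was −0.16 (adjusted p = 0.0170) and without mouse 3 it was −0.074 (adjusted p = 0.236). With the myeloid score in the fit, Pik3cg was at −0.22 (adjusted p = 0.0549).

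Pik3r1 (chr13:101680761-101768217, minus strand) encodes p85α and its shorter isoforms, the regulatory subunits that bind and stabilize the class IA catalytic subunits. The 8 CP CML mice had 266, 258, 301, 285, 289, 294, 342 and 308 CPM, and the 6 BC CML mice 227, 211, 238, 230, 223 and 213 CPM. Every BC CML mouse lay below every CP CML mouse, with the highest BC CML value at 238 CPM and the lowest CP CML value at 258 CPM. The mean fell from 293 ± 26.0 to 224 ± 10.4 CPM, a log2 fold change of −0.39 (SE 0.05, 95% interval −0.50 to −0.27, quasi-likelihood adjusted p = 6.0e-06). The size of this change was above that of 62.1% of all tested genes. In all alternatives run, the myeloid score as a covariate included, it lay between −0.41 and −0.33 and was past the threshold.

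Pik3r5 (chr11:68432125-68497846, plus strand) encodes p101, the regulatory subunit that links p110γ to G protein-coupled receptors. Its levels in CP CML were 245, 251, 302, 276, 324, 299.5, 262 and 271 CPM, and in BC CML 248, 227, 274, 259, 202 and 178 CPM. The groups overlapped, with BC CML mice 1, 3 and 4 inside the CP CML range and mice 2, 5 and 6 below it. The mean fell from 279 ± 27.6 to 231 ± 36.3 CPM, a log2 fold change of −0.27 (SE 0.09, 95% interval −0.46 to −0.08, adjusted p = 0.0155). With the myeloid score in the fit the log2 fold change was −0.10 and no longer past the threshold (adjusted p = 0.601). The mice with the lowest Pik3r5, 5 and 6, were those with the highest myeloid marker sums, and the part of this in the result beyond that fit was not tested.

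**Figure D3:**
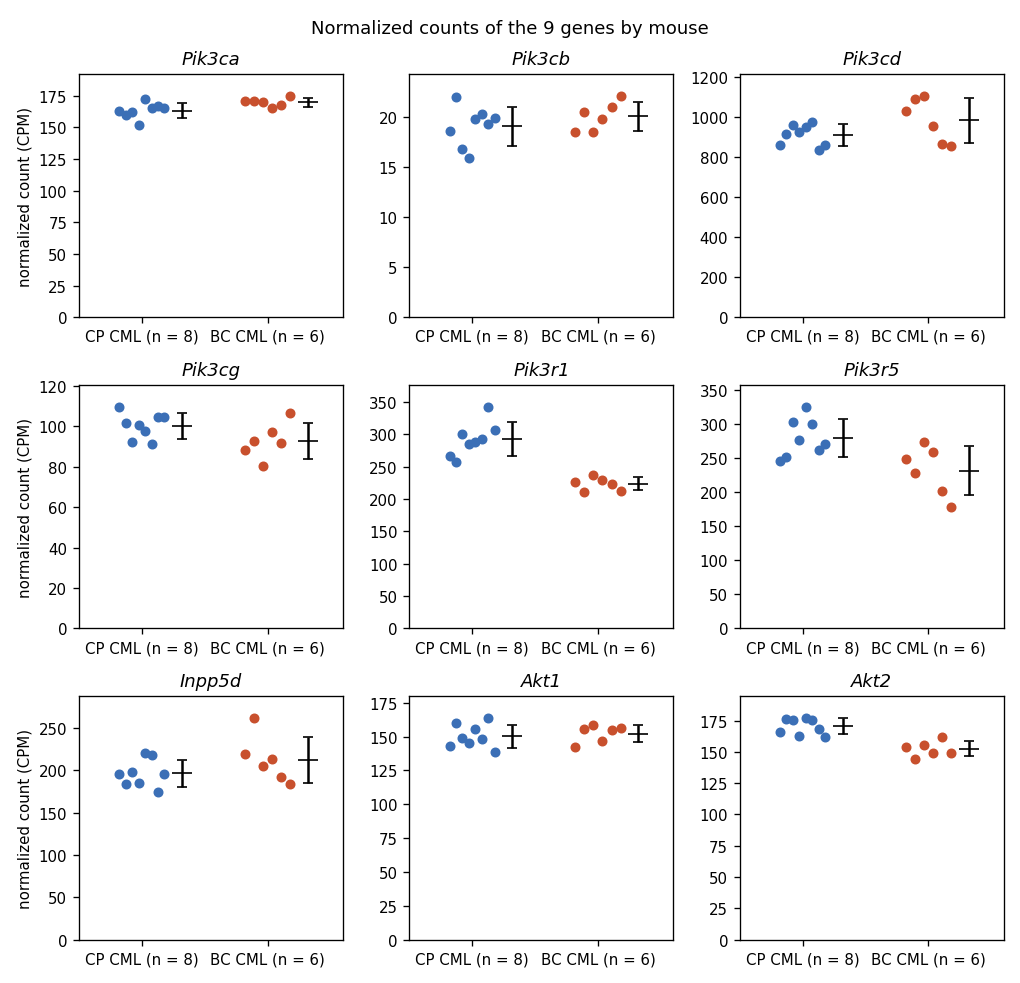
Normalized counts (CPM) of the 9 genes in each of the 8 CP CML and 6 BC CML mice, with the mean and SD of each group as a bar beside the points and each vertical axis starting at 0. The groups are apart for Pik3r1 and Akt2 and overlap for the other 7 genes, and in BC CML the last pair of points for Pik3cd and Pik3r5, mice 5 and 6, lies below the others.

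Inpp5d (chr1:87620312-87720510, plus strand) encodes SHIP1, the phosphatase of blood cells that turns PIP3 into another lipid, PI(3,4)P2. Its levels were 175 to 221 CPM with a median of 195 in CP CML and 184 to 262 CPM with a median of 210 in BC CML. The groups overlapped, with mouse 2 of BC CML highest at 262 CPM. The log2 fold change was 0.11 (SE 0.07, 95% interval −0.04 to 0.26, adjusted p = 0.167) and did not pass the test, and without mouse 2 it was 0.046 (adjusted p = 0.509).

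Akt1 (chr12:112653821-112674276, minus strand) encodes the AKT kinase with the broadest expression. It had 138 to 163 CPM (median 149) in CP CML and 142 to 158 CPM (median 155) in BC CML. The BC CML values lay entirely within the range of CP CML, and the log2 fold change was 0.02 (SE 0.04, 95% interval −0.07 to 0.11, adjusted p = 0.711). Akt2 (chr7:27591560-27639453, plus strand) encodes the AKT kinase best known from insulin signalling. The CP CML mice had 166, 177, 175, 162.5, 177, 176, 168 and 162 CPM, and the BC CML mice 154, 145, 155, 149, 162 and 149 CPM. The lowest CP CML value, 162.1 CPM, was just above the highest BC CML value, 161.7 CPM. The mean fell from 170 ± 6.43 to 152 ± 5.95 CPM (log2 fold change −0.16, SE 0.04, 95% interval −0.24 to −0.09, adjusted p = 0.000656), and over all alternatives run the change was between −0.18 and −0.15 and past the threshold.

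The spread between mice differed from gene to gene. In CP CML the coefficient of variation was between 3.69% for Pik3ca and 10.2% for Pik3cb, and in BC CML between 1.94% for Pik3ca and 15.702% for Pik3r5. Pik3cd (5.77% in CP CML and 11.2% in BC CML) and Inpp5d (8.15% and 12.8%) also spread more in BC CML, whereas Pik3r1 spread less (8.88% and 4.63%). The difference in spread was not tested.

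Ratios of genes within each library, from counts per kilobase, show whether one gene changed more than another free of library scaling. The ratio of Pik3r1 to the sum of the class IA catalytic subunits was 0.178 in CP CML (geometric mean, range 0.156 to 0.224) and 0.127 in BC CML (range 0.109 to 0.142). All 6 BC CML mice were below all 8 CP CML mice. The log2 difference was −0.48 (exact two-sided permutation test over 3003 splits, p = 0.000333, the smallest these splits can give, adjusted p = 0.0020 over 6 ratios). The ratio of Akt2 to Akt1 fell from 0.921 (range 0.836 to 0.963) to 0.813 (range 0.757 to 0.881), a log2 difference of −0.18 (exact permutation p = 0.00167, adjusted p = 0.0050), with an overlap in range that came from CP CML mouse 7. The remaining 4 ratios did not pass: Pik3cd to Pik3cg differed by 0.22 (adjusted p = 0.183), Pik3r5 to Pik3cg by −0.16 (0.475), Pik3cd to Pik3ca by 0.05 (0.597) and Pik3cd to Pik3cb by 0.03 (adjusted p = 0.813, all by the exact permutation test). Without BC CML mouse 6, the ratio of Pik3cd to Pik3cg differed by 0.30 (exact permutation, adjusted p = 0.0389) and that of Pik3r5 to Pik3cg by −0.050 (adjusted p = 0.705).

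**Figure D4:**
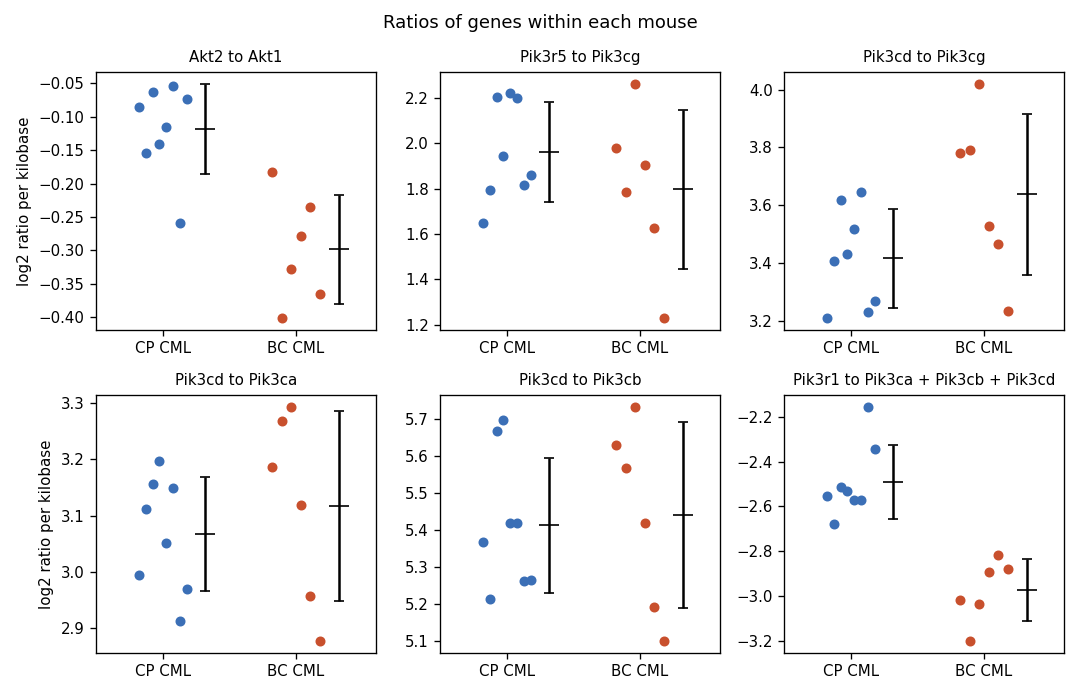
The 6 log2 ratios of genes per kilobase within each mouse, with the mean and SD of each group (8 CP CML and 6 BC CML mice) beside the points. The panel of Pik3r1 to the class IA catalytic sum shows the groups apart, the panel of Akt2 to Akt1 shows BC CML lower with a small overlap, and the groups are mixed in the other 4 panels.

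Of the other class IA regulatory subunits, Pik3r3 encodes p55γ, which binds the same catalytic subunits. It had 61 to 87 reads per library and 3.40 to 4.64 CPM in CP CML, and 534 to 664 reads and 27.9 to 34.1 CPM in BC CML. The groups were far apart, with a log2 fold change of 2.96 (SE 0.08, quasi-likelihood adjusted p = 3.3e-15). Its 3′UTR of 3224 bases held 1 site of the 3p arm, a 7mer-m8 at 116302424 to 116302430 of chromosome 4 (plus strand), a kind found in 4.18% of all genes, and it is printed with the match in capitals.
Pik3r3, 3p 7mer-m8: cctacagctccACACTACtaagacacaagc
Of the 14 pathway genes named by rule, a site of either arm was found in 6 (Pik3r3, Phlpp2, Foxo4, Sesn3, Eif4ebp2 and Icos), beside 30.68% of all genes. The 3′UTRs of these 6 had 1351 to 7395 bases and those of the other 8 had 544 to 7267, where the median of all genes was 1187. The sites of Sesn3 and Eif4ebp2 lie outside these genes' ranges in the counts table.
Per kilobase, Pik3r1 fell from 31.4 ± 2.79 to 24.0 ± 1.11 CPM and Pik3r3 rose from 0.795 ± 0.0913 to 6.19 ± 0.506 CPM, while Pik3r2, which encodes p85β and is given here because the sum needs it, was at 4.72 ± 0.467 and 4.42 ± 0.436 CPM. The sum of the 3 was 36.9 ± 2.95 CPM per kilobase in CP CML and 34.6 ± 0.526 in BC CML, with ranges that overlapped. Pik3r3 thus made up 2.17% ± 0.318 of the class IA regulatory transcripts in CP CML and 17.9% ± 1.65 in BC CML, and Pik3r1 85.0% ± 1.43 and 69.3% ± 2.48. For each 100 CPM per kilobase of class IA catalytic transcripts there were 21.0 ± 2.39 of regulatory transcripts in CP CML and 18.4 ± 1.86 in BC CML. These sums and shares were set up after the values had been seen and were not tested.

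The rest of the pathway was described with 7 lists that hold 96 genes, of which 92 were tested. Of these, 36 were higher and 32 lower, so that 73.9% were called against 65.2% of all tested genes, and the median log2 fold change was 0.06 against −0.01. Of the other PI3K subunits, 3 of 9 were higher and 3 lower. Pik3r3 was the highest of them by the rule for named genes, and Pik3c3, the class III kinase VPS34 of endosomes and autophagy, fell from 85.5 ± 3.26 to 60.1 ± 2.52 CPM (log2 fold change −0.51, SE 0.04, adjusted p = 1.8e-09). The other 2 that rose, named after their values were seen, were Pik3ap1 (8.25 ± 1.80 to 20.1 ± 4.75 CPM), an adaptor best known from B cells, and Pik3r6, the alternative class IB regulatory subunit p84, at 4 to 10 reads per library in CP CML and 16 to 44 reads in BC CML. Both are low-abundance transcripts that rose between the groups, as did the myeloid, NK and B cell marker sums given above. Within BC CML, mice 5 and 6 had the lowest NK sums but not the lowest Pik3ap1 or Pik3r6. The part of such cells in both genes was not tested.

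Among the other phosphoinositide phosphatases, 5 of 11 were higher and 3 lower, with a median log2 fold change of −0.07. Inppl1 (SHIP2) rose from 17.0 ± 1.51 to 28.7 ± 4.96 CPM (0.75, SE 0.09, adjusted p = 1.4e-06) and Synj2 fell from 32.3 ± 7.24 to 21.4 ± 3.29 CPM (−0.59, SE 0.14, adjusted p = 0.00152; −0.96 with the myeloid score in the fit).

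Among the other AKT kinases and AKT regulators, 4 of 13 were higher and 5 lower (median −0.04). Phlpp2, a phosphatase that removes an activating phosphate from AKT, rose from 18.7 ± 1.56 to 30.9 ± 1.47 CPM (log2 fold change 0.72, SE 0.06, adjusted p = 6.5e-09). Trib2, a pseudokinase that binds AKT, fell from 265 ± 16.4 to 80.5 ± 10.96 CPM (−1.72, SE 0.07, adjusted p = 1.7e-12).

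Of the AKT substrates and mTORC1 genes, 10 of 21 were higher and 5 lower (median 0.11). Foxo4, one of the FOXO factors that AKT phosphorylates, rose from 44.6 ± 3.31 to 75.6 ± 3.61 CPM (log2 fold change 0.76, SE 0.05, adjusted p = 4.3e-10). Eif4ebp2, a translation repressor inactivated by mTORC1, fell from 163 ± 6.40 to 87.3 ± 3.62 CPM (−0.90, SE 0.04, adjusted p = 1.1e-12). Foxo1, named after its values were seen as the most abundant FOXO gene of the list, was at 375 ± 18.8 and 361 ± 25.5 CPM and did not pass the test (−0.05, adjusted p = 0.327).

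Of the receptors and adaptors upstream of PI3K, 4 of 11 were higher and 4 lower (median 0.12). Icos, a costimulatory receptor that binds class IA PI3K directly, fell from 127 ± 9.12 to 73.3 ± 10.9 CPM (log2 fold change −0.79, SE 0.08, adjusted p = 1.1e-07). Igf1r, the receptor of insulin-like growth factor, rose from 71.8 ± 7.92 to 92.5 ± 6.96 CPM (0.37, SE 0.07, adjusted p = 0.000149), and with the myeloid score in the fit it was at 0.15 and not past the threshold (adjusted p = 0.199). Of the PIP3-binding effectors, 7 of 14 were higher and 5 lower (median 0.09). Arap3, a GTPase-activating protein recruited by PIP3, rose from 8.23 ± 0.930 to 20.1 ± 8.79 CPM (1.29, SE 0.21, adjusted p = 5.7e-05), and the T cell kinase Tec fell from 41.0 ± 3.02 to 26.4 ± 3.23 CPM (−0.63, SE 0.07, adjusted p = 4.1e-07).

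The FOXO target genes stood with 3 of 15 higher and 8 lower, and a median log2 fold change of −0.26. Ccr7, the chemokine receptor for homing to lymph nodes, fell from 290 ± 22.6 to 140 ± 27.2 CPM (log2 fold change −1.05, SE 0.10, adjusted p = 1.8e-07). Sesn3, a FOXO target that restrains mTORC1, rose from 128 ± 10.6 to 210 ± 20.2 CPM (0.71, SE 0.06, adjusted p = 1.9e-08). Of the 8 that fell, 6 also stand in the list of naive T cell markers, all 8 of which were lower, so that the count of this list is not separate from the naive marker sum.

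**Figure D5:**
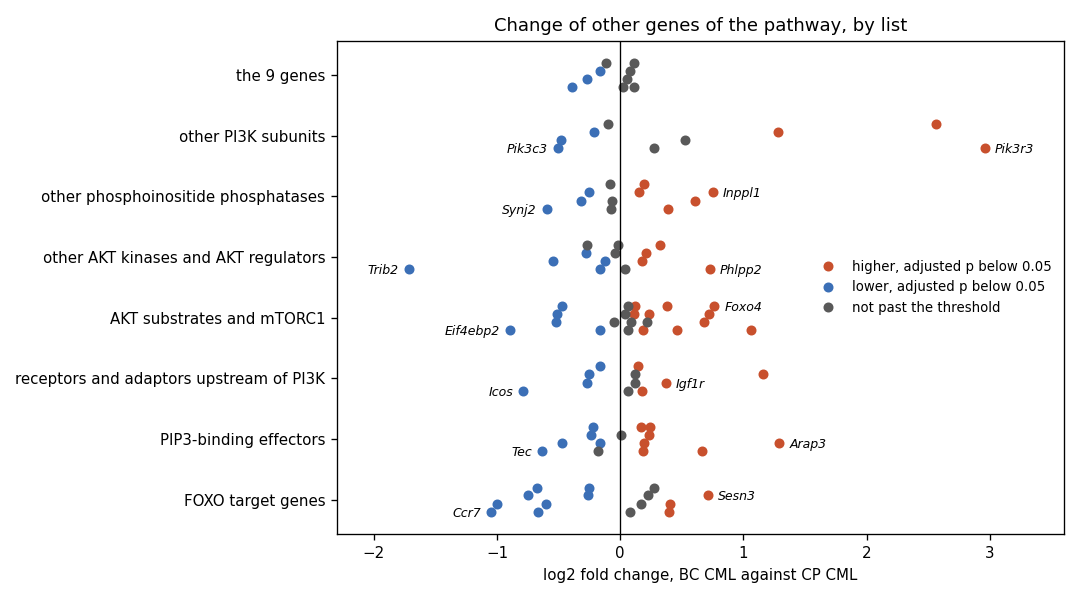
Log2 fold change of each tested gene of the 9 genes and the 7 pathway lists, BC CML against CP CML, with 1 point per gene, red for higher and blue for lower at an adjusted p below 0.05, and grey for genes not past the threshold. The 9 genes lie within −0.39 and 0.11, a narrower span than that of each list, and Pik3r3 at 2.96 and Trib2 at −1.72 are the farthest points on either side.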

How the data were processed

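Spleen T cells of 8 CP CML and 6 BC CML mice were profiled by RNA-seq. The authors trimmed adapters (Trimmomatic) and polyA tails (FASTP), mapped reads to mm10 with STAR 2.6.0 and deposited raw counts per gene from HTSeq 0.11.1, without normalization, beside each gene's position and length. The annotation and strand setting of the counting are not given in the sources used here. In GENCODE vM21, no exon of another gene overlapped an exon of the 9 genes.

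Counts were analysed in R 4.3.3 with edgeR 4.0.16: filterByExpr on group, TMM factors, and the robust quasi-likelihood test, two-sided, with Benjamini-Hochberg adjustment over 12248 genes and a threshold of 0.05. Normalized counts are TMM-scaled CPM. Standard errors of fold changes on the log2 scale were derived from the F statistic of the test. Ratios were tested by exact permutation in Python 3.11.15 (scipy 1.17.1). Replicates of a group differed by more than sampling noise (chi-square per degree of freedom from 2.99 to 21.6), so each library counted once. The fit was tested on simulated counts of 12172 genes for this comparison: 98 of 100 genes changed by a log2 of 1 and 63 of 100 changed by 0.3 were recovered, with 4 other calls.

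The 9 genes and the lists were chosen with earlier results of these data known. Named beside the 9 were Mir142, in each pathway list the gene that rose most and the gene that fell most among those past the threshold whose average log2 CPM was 3 or more, and in each marker list the gene with the highest mean in BC CML. Genes outside this rule are said to be so. The alternatives were edgeR's likelihood ratio test, which the study used, DESeq2 1.42.0, scaling by RLE or by library size alone, dropping the filter, keeping genes above 1 CPM in at least 6 libraries, the replicate number as a block, the mean log2 CPM of the myeloid markers as a covariate, each library left out in turn and, for ratios, raw reads or 1 added read.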

Additional observations from a re-analysis of the deposited data

How the results depend on the processing

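With the myeloid score as a covariate, 2643 genes were higher in place of 3987, Pik3r5 was at −0.10 (adjusted p = 0.601, not past the threshold), and 3 genes changed sign: Pik3ca (−0.00069, adjusted p = 0.993), Pik3cb (−0.21, adjusted p = 0.0494) and Akt1 (−0.0073, adjusted p = 0.946). The cause was not tested. With each library left out in turn, the number of the 9 genes past the threshold was between 3 and 5, and the number higher between 0 and 1. Over the same fits Pik3cd lay between 0.074 and 0.15, Pik3cg between −0.16 and −0.074, the log2 ratio of Pik3cd to Pik3cg between 0.14 and 0.30, that of Pik3cd to Pik3ca between 0.014 and 0.097, and that of Pik3cd to Pik3cb between −0.031 and 0.095. The last was negative without CP CML mouse 2, BC CML mouse 1 or BC CML mouse 3. Pik3r1 and Akt2 kept their direction and stayed past the threshold in all alternatives of the fit. Other filters, scalings and tests called 3 of the 9 genes each, all lower.

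The replicate numbers of the titles name different animals and did not pair them: deviations of same-numbered mice correlated with a mean r of −0.024 (from −0.273 to 0.356 over 6 pairs), and 2 of the 6 correlated best with their own number. With the replicate block the fit called 7318 genes. For the ratios, the differences of the 6 same-numbered pairs were tested by exact sign flips, which leaves out CP CML mice 7 and 8. The ratio of Pik3r1 to the class IA catalytic sum was then −0.40 and that of Akt2 to Akt1 −0.20. Both had an adjusted p of 0.09375, the lowest that this test gave. That of Pik3cd to Pik3cb was −0.023 (adjusted p = 0.969). Sign flips of 6 pairs cannot give p-values as small as the splits of all libraries can, so not passing here says little.

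Few reads stand behind Pik3r6 (4 to 44 per library), and changes of the size of Akt1's could not be told from 0. Intervals cover the spread between these mice, 1 library each.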
